A study of Mus musculus and Homo sapiens
Mus musculus with 12 samples.

Results

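Somatostatin (Sst) interneurons of the mouse brain were examined by snHH-seq, a droplet method that reads total RNA of single fixed nuclei with random primers and counts unique fragment identifiers (UFIs), so that fragments of 1 transcript may be counted separately. A nucleus was taken as an Sst interneuron when it had at least 1 Lhx6 UFI and, per 10000 UFIs, at least 5 of Nxph1, at least 1 of Gad1 and Gad2 together, at least 2 of Sst and under 10 of Adarb2. This rule kept 100 of 11198 brain nuclei. They were set beside 338 Lhx6 interneurons without Sst, which met the same rule but had Sst under 2 per 10000, and 966 Adarb2 interneurons, with Gad1 and Gad2 at 1 or more and Adarb2 at 10 or more per 10000. The members were thus chosen by the measured UFIs of these 6 genes. The brains were of untreated wild-type C57BL/6J male mice aged 6 to 8 weeks, ground in liquid nitrogen, and no group carried a transgene. Of the 12 samples, 7 were brain libraries. By their titles, 2 were made from frozen tissue without a preindex on the reverse transcription primer, 2 from frozen tissue with it, 2 from fresh tissue without it and 1 from fresh tissue with it. The treatment field names the opposite primer in 4 of the 7 libraries, and the titles were used. Barcodes are 40 bases long where the title says preindexed and 30 elsewhere. Whether the libraries came from separate brains is not stated, so the p-values measure only the spread between these libraries.

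Sst interneurons release GABA together with the peptide somatostatin and, in cortex and hippocampus, mostly contact the dendrites of excitatory cells. They arise with Pvalb interneurons from the medial ganglionic eminence under the transcription factor Lhx6, whereas Adarb2 marks interneurons of the caudal ganglionic eminence, such as those with Vip. Known subtypes include Martinotti cells and a sparse type with long-range axons that carries Nos1, Npy and Chodl.

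The Sst gene lies at chr16:23889573-23890958 on the minus strand (GRCm38, GENCODE M21). Its promoter is shown because somatostatin transcription is a textbook target of the cAMP response element, whose palindrome TGACGTCA is in capitals. The window is chr16:23890795-23891094 (minus strand, RefSeq, GRCm38.p6), printed 5′ to 3′.
Sst promoter: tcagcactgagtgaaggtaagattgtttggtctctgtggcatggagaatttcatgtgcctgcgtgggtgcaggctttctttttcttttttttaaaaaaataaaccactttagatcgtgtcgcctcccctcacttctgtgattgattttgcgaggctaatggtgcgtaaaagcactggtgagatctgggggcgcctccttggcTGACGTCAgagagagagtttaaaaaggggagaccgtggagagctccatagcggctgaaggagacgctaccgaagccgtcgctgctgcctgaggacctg
The palindrome covers bases 48 to 41 before the RefSeq start, but the GENCODE gene starts 114 bases further upstream, so by that annotation it lies inside the gene. It reads the same on both strands. It occurs in 588 of 32851 promoter windows of this length (1.79%) and in none of the windows of the 10 genes, of the 12 named as higher below, that have one in the table. A match of letters is a description and not a measured binding site.

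The values that chose the members are given as a description only. Sst ranged from 2.14 to 24.7 per 10000 UFIs in the members, with a median of 4.07, from 2 to 68 UFIs a nucleus with a median of 7. The 3 members closest to the threshold had 2.14, 2.15 and 2.25 per 10000, and the 3 closest nuclei outside it had 1.98, 1.89 and 1.78. Of the 338 Lhx6 interneurons without Sst, 275 had no Sst UFI. Lhx6 rested on 1 UFI in 45 members and reached 9 UFIs, and Nxph1 ranged from 5.06 to 95.7 per 10000. The background was low: 1.41% of 6469 nuclei with no Gad1, Gad2 or Lhx6 UFI had an Sst UFI, at a median depth of 11980 UFIs against 17328 in the members.

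The requirement of an Lhx6 UFI set aside many nuclei rich in Sst. Sst was past its threshold in 195 nuclei, of which 82 had no Lhx6 UFI, and 57 of those met the rest of the rule. These 57 were shallower, with a median of 9425 UFIs. Grin3a stood at 8.55 per 10000 in them and at 9.2 in the members, Elfn1 at 6.88 and 7.42, and Reln at 10.6 and 10.9. Thus the values of these genes in nuclei left out for want of an Lhx6 UFI lay close to those of the members, with no test.

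The label was set against its 4 markers. Sst, Lhx6 and Nxph1 were fixed by the rule, so only Moxd1, a monooxygenase-like gene, was independent of it. Moxd1 had a UFI in 48 of 100 members and in 45.3% of Lhx6 interneurons without Sst, and in 4.24% of Adarb2 interneurons. Its background in nuclei with no Gad1, Gad2 or Lhx6 UFI was 2.38%, so it was seen in both Lhx6 classes. Vip had no UFI in any member. By counting error alone this allows up to 3% of nuclei with a Vip UFI, and it sets no limit on the share expressing Vip. Among markers of other types, summed over the members, excitatory markers reached 2.60 per 10000 UFIs (Camk2a 2.30; Neurod6 at 0) and those of striatal medium spiny neurons 16.2 (mostly Pde10a), against 9.92 and 22.0 in nuclei outside the 3 classes. Oligodendrocyte markers reached 2.16 (Mbp 0.769), astrocyte markers 0.933 (Slc1a2 0.774; Aqp4 and Gfap at 0), markers of oligodendrocyte precursors 0.174 (Vcan 0.154; Pdgfra and Olig2 at 0), microglial markers 1.55 (C1qa at 0) and endothelial markers 0.0769. Kidney markers stood at 0.123 in the members, whereas the other nuclei of the frozen preindexed libraries held 9.76 and 9.22, and of the 5 liver markers only Cps1 had a UFI in a member. Of 64 nuclei whose barcode occurred in more than 1 library, none was a member.

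Sst interneurons were found in every library, at 5 and 9 nuclei in the frozen libraries without preindex, 16 and 16 in the frozen preindexed, 10 and 25 in the fresh without preindex and 19 in the fresh preindexed. They made up 0.714% and 1.13% of nuclei in the frozen libraries without preindex, 0.696% and 0.801% in the frozen preindexed, 1.00% and 1.92% in the fresh without preindex and 0.613% in the fresh preindexed. The exact 95% Clopper-Pearson interval was 0.232% to 1.66% in the library with 5 members and 1.25% to 2.83% in the one with 25, and covers counting error only. Median depth per member ranged over libraries from 8877 to 27177 UFIs, and the summed UFIs of the members from 79268 to 787674.

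The share did not differ by storage beyond the spread of libraries, at 0.834 ± 0.199% in 4 frozen and 1.18 ± 0.673% in 3 fresh libraries (mean ± SD; two-sided exact permutation p = 0.429). By primer it was 0.703 ± 0.0942% in 3 preindexed and 1.19 ± 0.518% in 4 libraries without preindex (exact permutation p = 0.114). Among all Lhx6 interneurons the members took 17.2%, 17.8% and 18.6% in the preindexed libraries and 23.1%, 28.6%, 37.3% and 45.5% in the others, with no overlap (exact permutation p = 0.0571, adjusted over 2 tests 0.114; the smallest p that 4 against 3 libraries allow is 0.0286). The median UFIs of all nuclei ran from 9012 to 14017 in the preindexed and from 10187 to 27543 in the other libraries, with overlap. Every nucleus of at least 5000 UFIs was then thinned to 5000 before the rule was applied. This kept 2943 of 3100 nuclei in the fresh preindexed library, 2292 of 2300 in the first frozen preindexed and 693 of 700 in the first frozen without preindex. The other libraries kept all nuclei. Of the kept nuclei the share was 0.583 ± 0.0621% with preindex and 0.578 ± 0.154% without it (exact permutation p = 0.914). Of Lhx6 interneurons it was 27.2 ± 5.44% with preindex and 51.9 ± 32.6% without it, and the libraries then overlapped (exact permutation p = 0.2). The rule applied at that depth found 5 members and no other Lhx6 interneuron in the first frozen library without preindex.

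**Figure D1:**
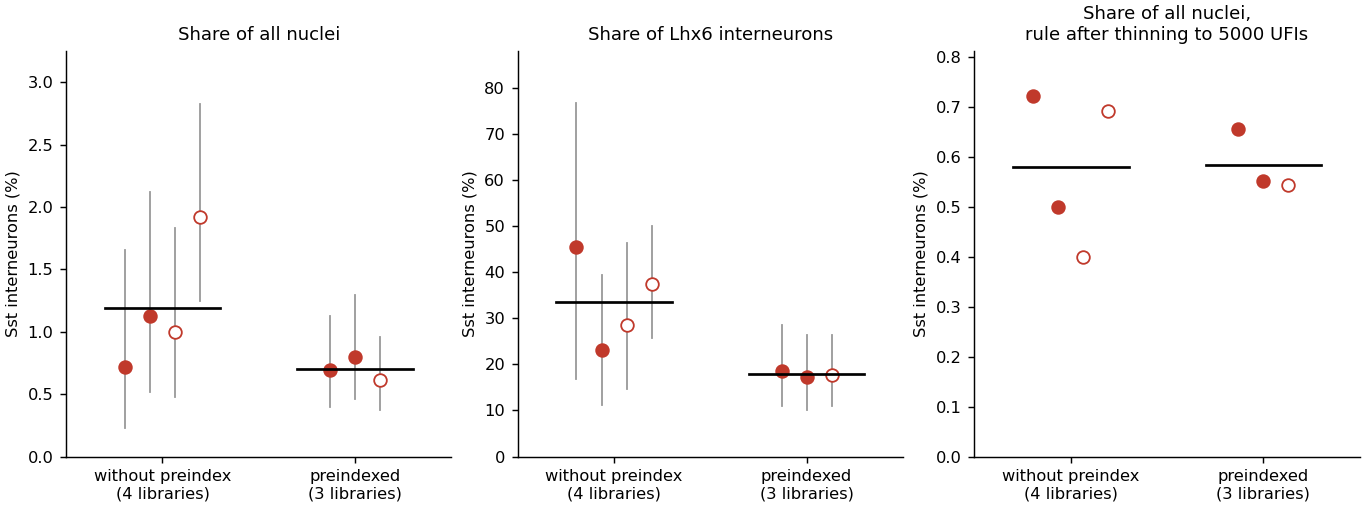
Share of Sst interneurons (%) in each library, without preindex at left and preindexed at right. Shares are of all nuclei, of Lhx6 interneurons and, after thinning to 5000 UFIs, of nuclei with at least that many. Filled points are frozen and open points fresh libraries, grey lines are exact 95% intervals where drawn, and black bars are means. The preindexed libraries lie lowest among Lhx6 interneurons, between 17.2% and 18.6%, and the 2 sets overlap after thinning.

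RNA content was compared with the other Lhx6 interneurons of the same library, and the difference was within the spread of libraries. The median was 17130 ± 5559 UFIs per nucleus over 7 libraries for the members and 17921 ± 8182 for Lhx6 interneurons without Sst, higher in the members in 3 of 7 (two-sided exact sign-flip permutation p = 0.562; the smallest possible is 0.0156). At a fixed 5000 UFIs they had 2099 ± 72.5 and 2092 ± 64.0 genes (exact permutation p = 0.594). These tests do not show that the classes are equal.

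To ask which genes went with Sst inside the Lhx6 lineage, UFIs were summed per library and class and tested with edgeR. Of 7672 genes, 1199 passed an adjusted p of 0.05 (15.6%), 587 higher (7.65%) and 612 lower (7.98%) in Sst interneurons, with a median log2 fold change over all genes of 0.01. Of all tested genes, 10.6% moved alike in every library, whether up or down. Levels are in CPM (UFIs per 1000000 UFIs of the class in a library). Lhx6 interneurons without Sst numbered from 6 nuclei in the first frozen library without preindex to 88 in the fresh preindexed library. In those 6 nuclei several named genes, such as Tacr1 and Stk32b, were at 0 CPM. Among genes that moved alike in every library and averaged at least 50 CPM where higher, the largest rises were of Npy, Man1a, Nos1 and L3mbtl4. The largest falls among them were of Pde5a, Adamts15, Cemip and Syt2. Genes known from Sst interneurons were mostly higher and genes known from Pvalb interneurons lower. The comparison class was split from the members by Sst alone, so genes that follow Sst were bound to differ to some degree, and p-values of genes tied to Sst carry that choice.

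Of 28 genes listed as known from Sst interneurons, 18 passed the filter on low counts, and 12 of these were higher and none lower, with a median log2 fold change of 1.22. Elfn1, a postsynaptic adhesion protein that sets short-term facilitation at synapses onto these cells (chr5:139907943-139974722), had a lowest, median and highest level over libraries of 502, 738 and 891 CPM in Sst interneurons and 109, 136 and 252 in Lhx6 interneurons without Sst. The ranges did not overlap (log2 fold change 2.20 ± 0.19 SE, edgeR adjusted p = 1.67e-08; higher in 7 of 7 libraries). Grin3a, an NMDA receptor subunit (chr4:49661611-49845744), had a UFI in all 100 members, in 47.9% of the comparison class and in 30.3% of the background nuclei without Gad1, Gad2 or Lhx6 UFIs; at 5000 UFIs a nucleus the shares were 92.9%, 35.1% and 19.4%. Its level was 391, 890.0 and 1119 CPM against 122, 258 and 373, again with no overlap (1.82 ± 0.17, edgeR adjusted p = 3.64e-08).

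Reln, the secreted glycoprotein reelin, stood at 922, 1045 and 1215 CPM against 121, 264 and 471 (2.06 ± 0.21, edgeR adjusted p = 1.58e-07), and its lowest member library was above the highest of the comparison class. Synpr, a synaptic vesicle protein, and Trhde, the enzyme that degrades thyrotropin-releasing hormone, rose by 1.90 and 1.93 in log2 units, each in 7 of 7 libraries without overlap. Smaller rises were seen for Crhbp, which binds corticotropin-releasing hormone (1.27), the calcium buffer Calb1 (1.03) and the transcription factor Satb1 (0.77), whose ranges overlapped. Sox6 rose by 0.61 (edgeR adjusted p = 0.0448) and no longer passed with DESeq2 or without any of 6 of the 7 libraries taken singly. Moxd1 stood at 37.8, 85 and 161 against 103, 114 and 149.8 (-0.19 ± 0.18, edgeR adjusted p = 0.596).

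**Figure D2:**
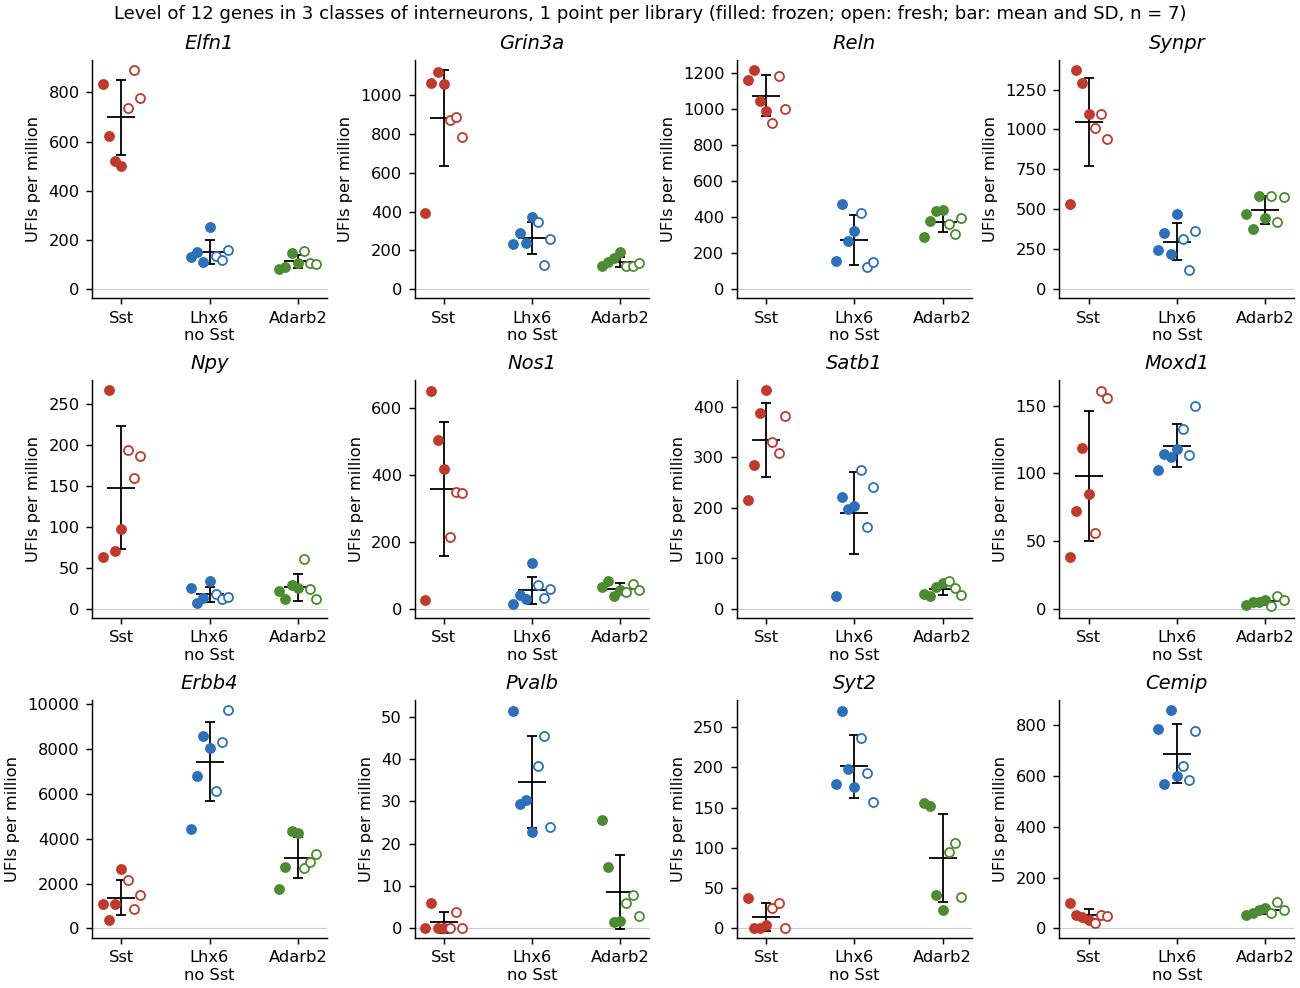
Level of 12 genes (CPM of the class in a library) in Sst interneurons, Lhx6 interneurons without Sst and Adarb2 interneurons; each point is 1 of 7 libraries, filled for frozen and open for fresh tissue, with mean and SD. Elfn1, Grin3a, Reln, Synpr and Npy lie highest in Sst interneurons, Erbb4, Pvalb, Syt2 and Cemip highest in Lhx6 interneurons without Sst, and Moxd1 overlaps between both Lhx6 classes.

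Npy and Nos1, 2 genes of the long-range type, were among the named genes. Npy, neuropeptide Y (chr6:49822710-49829507), stood at 63.1, 159 and 266 CPM against 6.53, 14 and 34.1, without overlap (3.12 ± 0.35, edgeR adjusted p = 7.14e-07). Nos1, neuronal nitric oxide synthase (chr5:117781032-117958840), stood at 25.2, 348 and 653 against 12.9, 40.8 and 137 (2.68 ± 0.31, edgeR adjusted p = 1.12e-06), and its ranges overlapped because of 1 frozen library without preindex at 25.2. Tacr1, the substance P receptor, rose by 2.32. All 6 tested of the 8 genes listed for long-range Sst cells were higher. The Nos1 and Tacr1 sums came largely from 14 members that held Nos1 at 5 per 10000 or more, a cutoff chosen after its values were seen: Nos1 stood at 24.6 per 10000 in them and 0.269 in the other 86, and Tacr1 at 12.4 and 0.161. Leaving out these 14 lowers Nos1 in the members by construction, since the comparison class was not trimmed, and genes that go with Nos1 may be lowered too. Without them the sign turned for Nos1 (-1.11, edgeR adjusted p = 0.0657), Tacr1 (-1.37, adjusted p = 0.0867) and Chrm2 (-0.94, adjusted p = 0.0745). Sox6 no longer passed (0.31, edgeR adjusted p = 0.42). Npy still rose by 2.35 without them (edgeR adjusted p = 9.14e-06) and Gabrg1 by 1.39 (adjusted p = 0.0372).

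The other genes named as higher have less settled roles in these cells. Man1a, a mannosidase that trims N-glycans (chr10:53904785-54076609), stood at 533, 750.5 and 784 CPM against 67.2, 101 and 202, with no overlap (2.72 ± 0.19, edgeR adjusted p = 7.10e-10). L3mbtl4 rose by 2.51, the long non-coding RNA Gm28175 by 2.46, Syt6, a synaptotagmin, by 2.44, Stk32b, a kinase, by 2.41, Fxyd6, a regulator of the sodium pump, by 2.28, Ankfn1 by 2.20 and Lama4, a laminin chain, by 2.18. All rose in 7 of 7 libraries, as the choice of named genes required, and of these only Ankfn1 overlapped between the classes.

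Genes known from Pvalb interneurons ran the other way. Of 10 tested of the 17 listed, 8 were lower and none higher, with a median of -1.54. Pvalb itself, the calcium buffer parvalbumin, had UFIs in 3 of 100 members, in 26.3% of Lhx6 interneurons without Sst and in 2.93% of nuclei outside the 3 classes. Its level was 0, 0 and 6.04 CPM against 22.7, 30.3 and 51.4 (-4.16 ± 0.57, edgeR adjusted p = 1.26e-05). Erbb4, the neuregulin receptor (chr1:68032186-69108059), stood at 357, 1102 and 2630.1 against 4448, 8038 and 9750.2, without overlap (-2.54 ± 0.23, edgeR adjusted p = 3.41e-08). Syt2, a fast calcium sensor of release, fell by 3.72 on the log2 scale, the netrin receptor Unc5b fell by 3.15, Plcxd3 fell by 1.90, Mef2c fell by 1.18 and the fast potassium channel Kcnc1 fell by 1.16.

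Other named genes were lower as well. Pde5a, a cyclic GMP phosphodiesterase (chr3:122728947-122859374), was at 0 in the median member library and at 20.1 CPM in the highest, against 64.3, 136 and 167 (-4.72 ± 0.41, edgeR adjusted p = 1.37e-08). Cemip, which degrades hyaluronan (chr7:83932857-84086502), stood at 21.4, 50.2 and 101 against 568, 638 and 859 (-3.89 ± 0.19, edgeR adjusted p = 1.92e-12). Neither gene overlapped between the classes. Lower in 7 of 7 libraries were also Adamts15, a matrix protease (-4.32), Igsf11, an adhesion protein (-3.70), Myo1e (-3.37), Gfra1, a receptor of glial cell line-derived factor (-3.16), the transcript 6330411D24Rik (-3.05), Mypn (-3.01), Ltbp1 (-2.75) and Fras1 (-2.65).

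**Figure D3:**
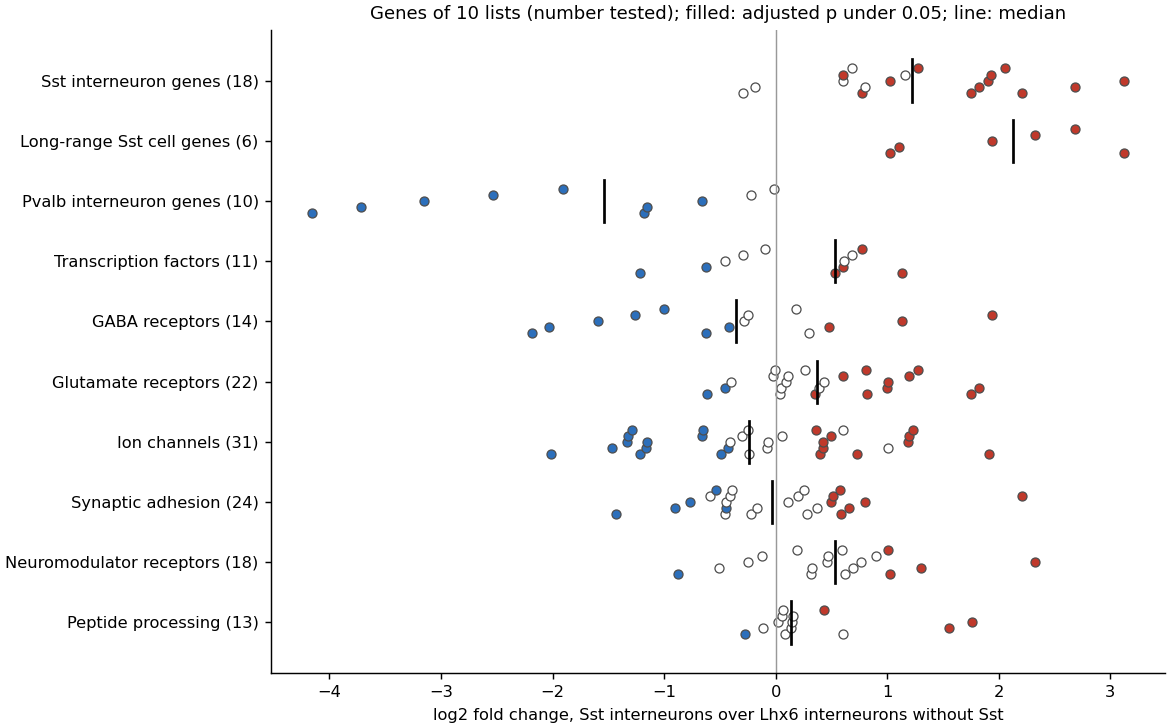
Log2 fold change of Sst interneurons over Lhx6 interneurons without Sst for the tested genes of 10 lists; each point is a gene, filled where the edgeR adjusted p was under 0.05 (red higher, blue lower), and the black line is the list's median. The Sst list has 12 filled points, all right of 0, and the Pvalb list 8, all left of it; genes can be in more than 1 list.

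Receptors for GABA and glutamate changed in both directions. Of 14 GABA receptor genes, 7 were lower and 3 higher (median -0.35). The lower set held the subunits Gabrg3, at 381, 694 and 952 CPM against 1959, 2449 and 4461 with no overlap (-2.03 ± 0.20, edgeR adjusted p = 9.44e-08), Gabrd (-2.18) and Gabrb2 (-1.26). The higher set was Gabrg1 (1.93), Gabra2 (1.13) and the metabotropic Gabbr1 (0.48). Of 22 tested glutamate receptor genes of 25, 10 were higher and 2 lower (median 0.37). Besides Grin3a, the kainate receptor subunit Grik3 rose by 1.27 and the presynaptic receptor Grm7 by 1.19. The AMPA subunit Gria4 fell by 0.61 and Grm5 fell by 0.45.

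Ion channels divided almost evenly, with 10 of 31 higher and 12 lower. Cacna2d3, an auxiliary calcium channel subunit, stood at 2157, 2889 and 3239 CPM against 555, 643 and 1247 with no overlap (1.91 ± 0.14, edgeR adjusted p = 1.68e-09). The A-type potassium channel Kcnd3 (1.20) and the T-type calcium channel Cacna1g (1.19) were higher too. Kcnh7, an ERG-type potassium channel, stood at 157, 342 and 529 against 1183, 1373 and 1421, without overlap (-2.01 ± 0.16, edgeR adjusted p = 5.40e-09). Lower as well were Kcna1 (-1.46) and the sodium channel Scn1a (-0.65).

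Of 24 tested adhesion genes of 30, 7 were higher and 5 lower. Nrxn2 and Nrxn3, presynaptic neurexins, the adhesion proteins to which the rule gene Nxph1 binds, were higher by 0.49 and 0.58. Cntnap4 fell by 1.43 and Il1rapl1 fell by 0.91. For peptide handling, 3 of 13 genes were higher and 1 lower: the prohormone convertase Pcsk1 rose by 1.76, the secreted granule protein Vgf by 1.55 and the amidating enzyme Pam by 0.43, whereas Cadps fell by 0.28. The Cadps call was lost in 14 of 18 alternatives and that of Pam in 3 of 18. Among 18 tested receptors for modulators, of 30 listed, 4 were higher and 1 lower. The muscarinic receptor Chrm3 stood at 716, 1207 and 1673 CPM against 334, 511 and 643 (1.30 ± 0.16, edgeR adjusted p = 3.48e-06), the oxytocin receptor Oxtr rose by 1.03, and the delta opioid receptor Oprd1 fell by 0.87. The other 2 that rose were Tacr1 and the muscarinic receptor Chrm2 (1.01). The Oxtr call was lost in 2 of 11 alternatives (smallest rise 0.45) and that of Oprd1 in 1 of 18 (smallest fall -0.41). The Chrm2 call was lost in 6 of 18 alternatives and its sign turned in 1 more, without the Nos1-rich members (-0.94, edgeR adjusted p = 0.0745), where the sign of Tacr1 turned too (-1.37, adjusted p = 0.0867).

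Of 11 tested transcription factors of the lineage, 4 were higher and 2 lower, the lower ones being Zfhx3 (-1.21) and Zeb2 (-0.63). Of these calls Zfhx3 was lost in 7 of 18 alternatives, Sox6 in 10 and Maf in 8, with Maf of opposite sign in 1 more, whereas Zeb2 passed in all 18. From the list for caudal interneurons, 3 of 10 tested genes were higher, Npas1 by 2.25, Nr2f2 by 1.29 (lost in 4 of 16 alternatives) and Npas3 by 0.90, and Kit, a receptor tyrosine kinase, fell by 2.12. Among markers of other cell types, Camk2a of the excitatory list fell by 0.51 and Rgs9 of the striatal list rose by 1.36 (lost in 5 of 18 alternatives), while no tested gene of the oligodendrocyte, astrocyte, precursor, microglial, cerebellar or regional lists passed. Summed excitatory markers were 2.60 per 10000 UFIs in the members and 3.41 in Lhx6 interneurons without Sst, and summed microglial markers 1.55 and 0.918; their part in the results was not tested. Of 9 tested nuclear and small RNAs, Miat alone passed, higher by 0.74.

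Against Adarb2 interneurons, 1346 of 7672 genes passed in edgeR (17.5%), 577 higher (7.52%) and 769 lower (10%) in Sst interneurons. The Adarb2 class was set by Gad1, Gad2 and Adarb2 alone, without regard to brain region, and its origin was not tested. The contrast shares its Sst interneuron sums with the one above. Both classes were chosen by the rule genes, so genes that follow Lhx6, Nxph1, Sst or Adarb2 were bound to differ to some degree. The p-values of such genes carry that choice. The named gene with the largest rise was Crhbp, at 38.6, 75.4 and 151 CPM against 0, 1.83 and 3.01 without overlap (5.38 ± 0.31, edgeR adjusted p = 2.14e-11). Moxd1 stood at 37.8, 85 and 161 against 2.13, 5.26 and 9.49, also without overlap (4.23 ± 0.24, edgeR adjusted p = 2.00e-11). The transcription factors Sox6 and Satb1, which act downstream of Lhx6, rose by 3.32 and 3.15, Eya4 by 4.42 and Klf5 by 3.24. Also named were Lama4 (3.71), Mageb18 (3.40), Man1a (3.16), the complement protease Masp1 (3.13), Lypd6b (2.86) and Tmem44 (2.83).

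Of the 18 tested genes known from Sst interneurons, 16 were higher and none lower (median 2.63), among them Rbp4 (4.36), Elfn1 (2.66) and Grin3a (2.71). Of 10 tested genes of the caudal list, 7 were lower and 2 higher. The higher ones were Npas1 (lost in 4 of 16 alternatives) and Npas3 (lost in 7 of 17). Vip, vasoactive intestinal peptide, had 0 UFIs in 1951346 from the members and 966 in 15330878 from Adarb2 interneurons, at least 41.0-fold lower when 3 UFIs over the members are taken as the floor. The fate determinant Prox1 stood at 0, 3.86 and 7.62 CPM against 83.7, 112 and 144 (-4.50 ± 0.47, edgeR adjusted p = 1.29e-07). Kit (-4.21), Lamp5 (-3.62), Cxcl14 (-3.81) and Ndnf (-3.83) were lower as well. The growth factor receptor Egfr (-5.73), Frem1 (-5.32), Zfhx4 (-4.50), the phosphodiesterase Pde11a (-4.16), Glis3 (-4.03), Pbx3 (-4.01), Chst9 (-3.99) and Rgs12 (-3.87) complete the genes named as lower.

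All 4 tested genes that mark particular brain regions were lower than in Adarb2 interneurons: Meis2 (-2.98), Meis1 (-2.70), Tcf7l2 (-3.15) and Ebf1 (-3.43). None of them passed against Lhx6 interneurons without Sst. The regional origin of the nuclei is not recorded, so class and region cannot be told apart. Some markers of other cell types were also lower: 2 of 3 tested excitatory genes, 2 of 2 astrocyte genes and 1 of 5 oligodendrocyte genes passed, all lower, and none of those tested for striatal neurons, precursors, microglia or cerebellar granule neurons passed. Summed over the list, 7 excitatory markers stood at 1.26 to 3.14 per 10000 UFIs in the member libraries and 3.95 to 6.08 in Adarb2 interneurons, led by Camk2a in both, and 6 astrocyte markers at 0.452 to 1.33 and 2.47 to 4.35, led by Slc1a2. Neither sum overlapped between the classes. Neurod6, Aqp4 and Gfap had no UFI in the members. The 7 oligodendrocyte markers, led by Mbp, summed to 2.16 and 2.54 over all libraries. Their part in this comparison was not tested. Of 14 GABA receptor genes 7 were lower and none higher than in Adarb2 interneurons, and Npy rose by 2.58. Nos1 rose by 2.64, again with most of its UFIs in the 14 Nos1-rich members. Without them its sign turned (-1.14, edgeR adjusted p = 0.0372), which follows from the choice of nuclei.

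The members differed among themselves in Nos1. The 14 Nos1-rich members held at least 5.91 per 10000, the next member held 1.59, and 61 members had no Nos1 UFI. They came from 6 of 7 libraries, between 1 and 4 a library, and their median depth of 17656 UFIs was close to that of the 86 others at 17328. Npy had a UFI in 13 of the 14 and stood at 5.17 per 10000 UFIs against 0.92 in the 86. Tacr1 also had a UFI in 13 of the 14, at 12.4 per 10000 against 0.161. Chodl, a lectin-like membrane protein and the usual name-giver of the long-range type (chr16:78930948-78951733), had a UFI in 6 of the 14 and 3 of the 86.

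The Nos1-rich members were low where the other members were high. Reln stood at 1.55 per 10000 UFIs in the 14 and 12.5 in the 86, Elfn1 at 1.88 and 8.33, Synpr at 5.13 and 11.9 and Calb1 at 0.362 and 1.28. Nxph2, a relative of Nxph1, was the reverse, at 2.82 and 0.269. Grin3a was near equal at 7.41 and 9.5, with a UFI in every member of both sets. Hpse and Pdyn had no UFI in the 14, but in the 86 only 15 and 18 members had one. These values describe nuclei of 6 libraries, too few a library for a test.

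**Figure D4:**
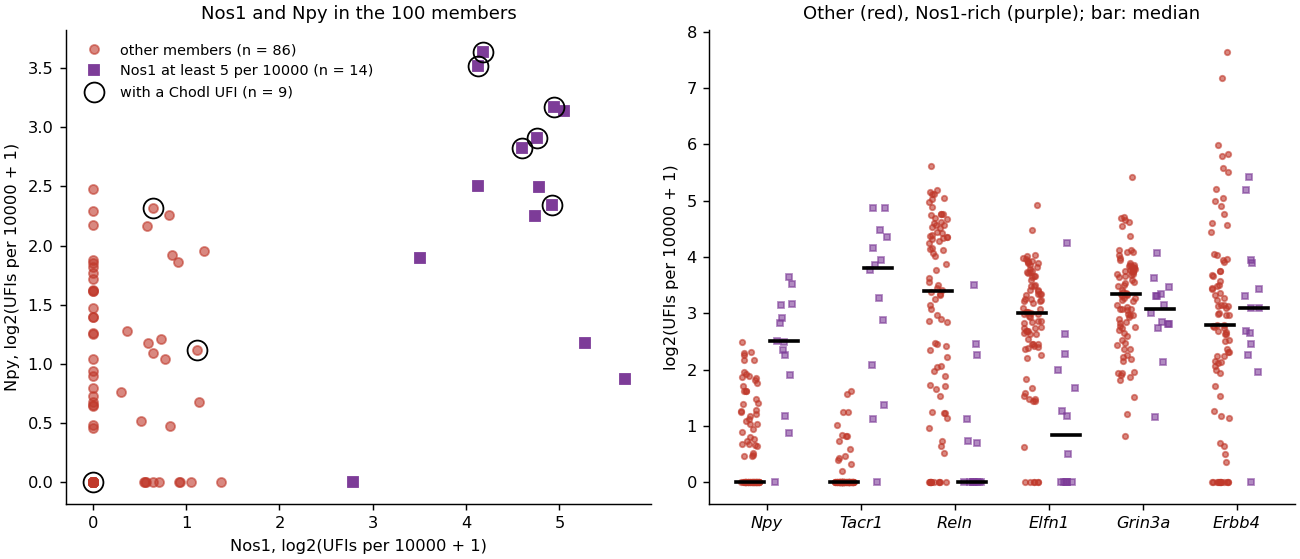
Left, Nos1 against Npy in each of the 100 members, both as log2(UFIs per 10000 + 1), with the 14 Nos1-rich members as purple squares and the 9 members with a Chodl UFI circled; right, 6 genes in the other members (red) and the Nos1-rich (purple), with medians as bars. The Nos1-rich members stand apart on the horizontal axis, have higher medians of Npy and Tacr1 and lower ones of Reln and Elfn1, and overlap with the others in Grin3a and Erbb4.

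A second set of genes went together in other members. Hpse, the enzyme heparanase, which marks a cortical layer 4 type of Sst cell, had a UFI in 15 members of 5 libraries, and 11 of these had one of Pdyn, the dynorphin precursor, which 18 members had in all. All 15 had Reln, at 17.3 per 10000 against 10.9 over all members, and 13 had Crhbp. Over all 100 members, 80 had a Reln UFI and 50 a Crhbp UFI. No member had both Hpse and Chodl. Only 15 and 9 of the 100 had these 2 genes, too few to read the absence as a result. Erbb4 varied widely, from 0 in 14 members to 199 per 10000 in the highest, with 5 members at 50 or more and a median of 6.37. A UFI in a nucleus may be background, so the shares were also read in the nuclei outside the 3 classes, whose median depth was 12558.5 UFIs. There Hpse had a UFI in 0.95% and Pdyn in 4.54%, and after thinning to 5000 UFIs the shares were 9.18% of 98 members and 0.332% of the nuclei outside for Hpse and 11.2% and 2.2% for Pdyn. Cort, cortistatin, had a UFI in 8 members (8%) and in 0.327% outside, or 4.08% and 0.104% after thinning. Calb2 had one in 6 members (6%) against 5.39% outside and, after thinning, 1.02% against 2.27%. The nuclei outside are of many cell types, so their share does not give the background level of Calb2.

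Storage and primer were then compared within the members alone. For storage none of 3852 tested genes passed in edgeR (0%), with 181 at an unadjusted p under 0.05 1 gene passing in DESeq2 and 22 in edgeR with no filter on low counts. With the primer, 8 of 3852 genes passed (0.208%), 1 higher (0.026%) and 7 lower (0.182%) in the preindexed libraries. Dock10, a guanine nucleotide exchange factor (chr1:80501073-80758527), was at 12.6, 36.3, 55.8 and 80 CPM in the libraries without preindex and 356, 274 and 236 in the preindexed ones (log2 fold change 2.41 ± 0.35, adjusted p = 0.0235 in edgeR). Cadps2, a priming factor for dense-core vesicles, was at 37.8, 193, 90.1 and 97.8 CPM in the libraries without preindex and 8.78, 11.6 and 5.02 in the preindexed ones (-3.75 ± 0.57, adjusted p = 0.0235 in edgeR). Fat2, a cadherin of cerebellar granule cells (chr11:55250609-55336564), was at 88.3, 54.4, 60 and 44.4 CPM in the libraries without preindex and 0, 0 and 0 in the preindexed ones. Its 65 UFIs without preindex against 0 with it make it at least 11.7-fold lower, with 3 UFIs over the preindexed members as the floor.

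In these 3 genes the 2 sets of libraries did not overlap, as in 7.71% of all 3852 genes by primer and 5.22% by storage. Lower without overlap were also Cd44, the hyaluronan receptor (-2.54 ± 0.45, adjusted p = 0.0457 in edgeR), and Gm24601, annotated as ribosomal RNA (-1.76 ± 0.25, adjusted p = 0.0235). Inpp4b and the small nuclear RNA Rn7sk passed as well. The count of 8 depended on the processing: 15 genes passed with DESeq2, 57 with no filter on low counts, 12 without the first fresh library without preindex and 0 with the replicate number as a block. Further, 0 genes passed with Sst at 5 per 10000 or more, 0 without the second frozen library without preindex or without either frozen preindexed library, 1 without the second fresh library without preindex, 3 without the first frozen library without preindex and 1 after thinning. Cerebellar markers summed to 2.27, 1.51, 1.46 and 1.08 per 10000 UFIs in the members of the libraries without preindex and to 0.04, 0.27 and 0.40 in the preindexed, and their part in these differences was not tested. Fat2 is itself on that list; without it the sums were 1.39, 0.97, 0.86 and 0.63 against 0.04, 0.27 and 0.40.

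**Figure D5:**
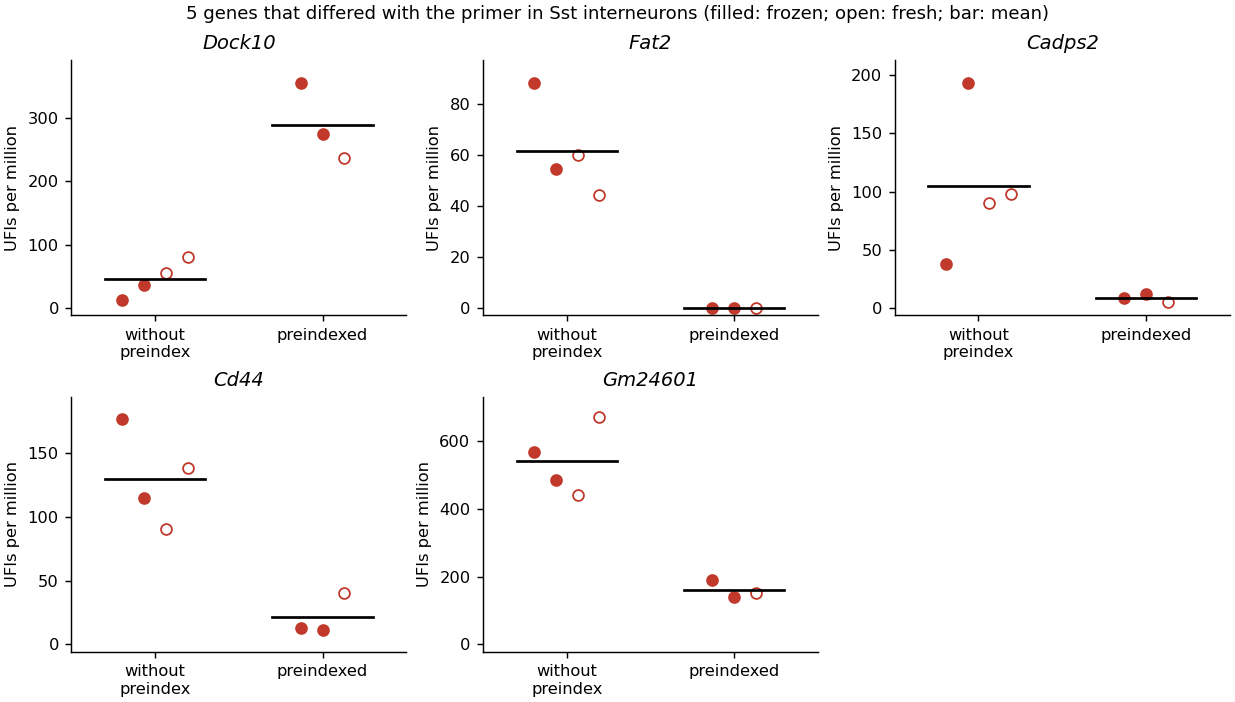
Level of 5 genes (CPM, summed over the members of a library) in libraries without preindex and preindexed; each point is a library, filled for frozen and open for fresh tissue, and bars are means. Dock10 lies between 236 and 356 in the preindexed libraries, above all others, and the remaining 4 genes lie below all others, with Fat2 at 0.

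Fat2, Cd44, Rn7sk, Cadps2 and Dock10 were also read in the other nuclei of these libraries. Fat2 in nuclei outside the 3 classes was at a mean of 0.56 CPM with preindex and 65.9 without it, Cd44 at 19.8 and 109, and Rn7sk at 430.0 and 957. Cadps2 was at 8.46 CPM with preindex and 105 without it in the members and at 40.5 and 75.8 in Lhx6 interneurons without Sst, but at 388 and 339 in Adarb2 interneurons and 314 and 364 in nuclei outside the 3 classes. The 2 sets of libraries overlapped in each of these other groups of nuclei. For Dock10 the means were 144 and 131 in nuclei outside the 3 classes, 73.1 and 52 in Lhx6 interneurons without Sst, 272 and 228 in Adarb2 interneurons, and 289 and 46.2 in the members. The 2 sets of libraries did not overlap for Dock10 in the members and in Adarb2 interneurons. Whether the primer effect differed between the 2 Lhx6 classes was tested as an interaction, and none of 5396 genes passed in edgeR for the primer (0%; 203 at an unadjusted p under 0.05) or for storage (0%; 206). The lowest adjusted p was 0.0594, for Clstn2, and Dock10 had 0.129.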

How the data were processed

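Brain nuclei of 7 snHH-seq libraries were analysed here; the species-mix libraries of the series were not used. The authors deposited UFI counts per gene and nucleus as whole numbers; by the study's methods and the submitters' processing notes, reads were trimmed with cutadapt, aligned with STAR, assigned to genes with featureCounts and counted with UMI-tools. The notes list GRCm38 and mm10 beside GRCh38, and the text of the methods names GRCh38 for this step; gene symbols were used, of which 94.1% of 34496 are in GENCODE M21. The study describes UFIs as strand-specific; the strand setting of the counting is not given in the sources used here. Libraries held 8605214 to 42439731 UFIs.

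The methods describe cutoffs on UFIs and genes against poor nuclei and doublets for tissue samples; whether they were applied to these files is not stated. Here no nucleus was removed and no doublet caller was run; 2 members lay above 2.5 times the median UFIs of their library and class. UFIs were summed per library and class (at least 5 nuclei), filtered with filterByExpr, scaled by TMM and tested with glmQLFTest in edgeR 4.0.16 (R 4.3.3) with library as a block, or with storage and primer as terms within the members, at a Benjamini-Hochberg adjusted p of 0.05. A standard error is the fold change divided by the square root of F. The rule genes were not tested. Library values were compared by two-sided exact permutation tests over 35 splits (scipy 1.17.1), where p is the share of splits with at least as large an absolute difference of means. At first p was the smaller tail doubled; the definition was changed after those p-values were seen, and none of 30 p-values is under 0.05 by either (the smallest is 0.0571 by both). Thinning drew 5000 UFIs a nucleus and left out nuclei with fewer. The fits were tested on simulated data.

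Named genes are the 12 higher and 12 lower with the largest fold change per class comparison (up to 5 for storage and primer) among those that passed, averaged at least 50 CPM where higher and moved alike in every library (for storage and primer, without overlap of libraries), plus members of fixed lists; some of them are not reported here. Members and lists were chosen with earlier results of these data known. The alternatives were DESeq2 1.42.0, other scalings and filters, other thresholds, thinning, other model terms, leaving out each library and, chosen after seeing the data, dropping the Lhx6 requirement and leaving out the Nos1-rich members.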

Additional observations from a re-analysis of the deposited data

Results flagged for a closer look

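In 7 of 52 sets of libraries examined, 1 library stood apart from the rest by more than the 95% limit of Dixon's test. Chance flags about 1 in 20 sets of normally distributed values. Levels with a median of 0 are not such values, so 7 of 52 cannot be read as an excess. Each concerns the level of a gene in Sst interneurons over 7 libraries. Fxyd6 was at 94.3 CPM in the first fresh library without preindex (median 50.2), and Kit was at 42.9 in the same library (median 4.39). Pde5a was at 20.1 and Ndnf at 25.1 in the fresh preindexed library, both with a median of 0. Cemip was at 101 in the first frozen library without preindex (median 50.2). Klf5 was at 103 (median 50.5) and Chst9 at 30.2 (median 0) in the second frozen library without preindex.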

How the results depend on the processing

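The counts of genes against Lhx6 interneurons without Sst and against Adarb2 interneurons stayed within 1.5 times the reported ones under every alternative run but these: thinning to 5000 UFIs left 517 and 758 genes, and Sst at 5 per 10000 or more left 836 against Adarb2 interneurons. Of 89 followed genes that passed in the first comparison 62 passed in every alternative, and 46 of 50 in the second. The exceptions in direction were Nos1 (-1.11 and, against Adarb2 interneurons, -1.14), Tacr1 (-1.37) and Chrm2 (-0.94) without the Nos1-rich members, where the sign of Nos1 follows from the choice of nuclei and the cause for the other 2 was not tested, Maf (-0.36) and the uncalled Moxd1 (0.12) at the higher Sst threshold. Storage genes numbered 1 with DESeq2, 22 with no filter and 0 to 1 when libraries were left out. Primer genes numbered 15 with DESeq2, 57 with no filter, 0 at the higher Sst threshold, 1 after thinning and 0 to 12 when libraries were left out. A replicate block gave 0 primer genes. Same-numbered libraries did not deviate together (correlations -0.03, -0.07 and -0.07). With so few libraries and members, this cannot decide whether the numbers pair them. Differences in share (percentage points) turned with thinning: 15.9 (frozen minus fresh, of Lhx6 interneurons), 0.0613 (same, of nuclei kept for thinning) and 0.00444 (preindexed minus without, of nuclei kept for thinning). Leaving out each library in turn, frozen minus fresh ran from -8.25 to 2.92 of Lhx6 interneurons, from -0.628 to 0.0275 of all nuclei and from -7504 to 1646 for median UFIs; all 3 turned without the second fresh library without preindex, and the first also without either frozen preindexed library. The cause of these changes was not tested. Counts of 5 to 25 members a library limit every comparison. Those with Lhx6 interneurons without Sst are also limited by their 6 to 88 nuclei a library.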

Other observations

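Genes of recent activity and receptors for somatostatin were scarce in Sst interneurons and none passed the filter for a test. Fos had a UFI in 2 of 100 members. Sstr1, a receptor that can act on the cell that releases the peptide, had a UFI in 19 of 100 members and in 5.62% of Lhx6 interneurons without Sst, which were shallower (median 14794 against 17328 UFIs); at 5000 UFIs the shares were 4.08% and 2.08%. In nuclei outside the 3 classes it was 4.35% before thinning. Sstr2 had none in the members, which by counting error alone allows up to 3% with a UFI. That sets no limit on the share expressing Sstr2. Sstr3 had a UFI in 2 members.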
